A study of Mus musculus with 3 samples.

Results

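The genes described here are 8 genes of B cell identity and of the germinal centre, Cd79a, Cd79b, Ms4a1, Pax5, Cd22, Fcer2a, Blk and S1pr2. They were chosen by symbol, with earlier results of these data known, and are 8 of the 53342 genes in the table. Each matched 1 identifier. Gene counts came from bulk RNA sequencing of whole lung from 3 male C57Bl/6 mice, 1 library per mouse, called mouse 4, 5 and 6 after the last digit of each label. Each mouse received microparticles made from Mycobacterium abscessus (MAB) into the trachea, a volume of 50 µL that matched 1000000 bacteria, to make granulomas form, and then 5 µg of MIA-602 under the skin every day for 3 weeks. MIA-602 is an antagonist of growth hormone-releasing hormone, and the series asks how it acts in a model of sarcoidosis. The particles are a stand-in for the human disease, and all 3 mice form 1 group. Untreated lungs, and challenged lungs that had no drug, were not analysed here, and neither effect can be read from these values.

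B cells recognise antigen through a membrane antibody that cannot signal alone. Its signal is carried by the paired chains encoded by Cd79a and Cd79b, is passed on by Src-family kinases such as Blk, and is held in check by inhibitory receptors such as the sialic acid-binding lectin encoded by Cd22. Pax5 is the transcription factor that commits a cell to the B lineage and keeps it there. Ms4a1 encodes the surface protein CD20 and Fcer2a the low-affinity receptor for IgE, CD23, which marks resting mature B cells. In a germinal centre, B cells mutate their antibody genes and compete for help from T cells, and S1pr2, a receptor for sphingosine 1-phosphate, keeps them confined there. S1pr2 is also made by vessel wall cells and other cells, so in whole lung it is not a marker of B cells alone. Chronic inflammation can give rise to B cell follicles in the lung.

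Promoter windows are shown first as background. Whether they bear on the levels was not tested. RefSeq (GRCm38.p6) gave 7 windows of 300 bases, 250 before and 50 after a start site, for 5 of the 8 genes. Short control elements known from B cell and general promoters are marked in the windows of Cd79a, Cd22, Fcer2a (its first window) and S1pr2. The windows are chr7:24897247-24897546 on the plus strand, and chr7:30878979-30879278, chr8:3694125-3694424 and chr9:20976744-20977043 on the minus strand. Capitals mark every match of 7 motifs searched on both strands, and no matches overlapped each other.
Cd79a: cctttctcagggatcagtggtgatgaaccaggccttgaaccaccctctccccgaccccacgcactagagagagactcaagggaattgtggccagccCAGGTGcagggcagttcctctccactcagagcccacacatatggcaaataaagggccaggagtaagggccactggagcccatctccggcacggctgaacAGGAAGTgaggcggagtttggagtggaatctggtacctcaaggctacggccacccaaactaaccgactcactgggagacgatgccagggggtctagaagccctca
Cd22: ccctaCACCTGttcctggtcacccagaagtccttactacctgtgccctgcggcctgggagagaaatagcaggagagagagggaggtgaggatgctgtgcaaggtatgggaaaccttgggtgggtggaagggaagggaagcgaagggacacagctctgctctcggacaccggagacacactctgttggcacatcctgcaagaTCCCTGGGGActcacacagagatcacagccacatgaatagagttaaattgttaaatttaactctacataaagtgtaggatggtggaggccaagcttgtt
Fcer2a: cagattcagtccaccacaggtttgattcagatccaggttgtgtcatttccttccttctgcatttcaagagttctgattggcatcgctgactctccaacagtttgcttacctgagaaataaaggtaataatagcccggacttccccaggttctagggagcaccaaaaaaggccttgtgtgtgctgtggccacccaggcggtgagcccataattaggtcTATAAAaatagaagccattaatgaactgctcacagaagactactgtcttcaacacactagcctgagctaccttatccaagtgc
S1pr2: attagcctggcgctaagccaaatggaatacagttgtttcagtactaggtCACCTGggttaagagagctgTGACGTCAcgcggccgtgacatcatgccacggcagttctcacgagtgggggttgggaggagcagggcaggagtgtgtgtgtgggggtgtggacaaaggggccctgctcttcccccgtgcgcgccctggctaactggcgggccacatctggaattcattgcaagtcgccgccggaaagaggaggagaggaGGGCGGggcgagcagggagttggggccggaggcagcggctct

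The motifs were the site of early B cell factor (TCCC and GGGA with 2 bases of any kind between them, found in 0.904% of the 32851 windows of all genes), the octamer (ATGCAAAT, 1.74%), an ETS site (AGGAAGT, 9.35%), an E-box of E2A (CAGGTG, 20.2%), the cAMP response element (TGACGTCA, 1.79%), the TATA box (TATAAA, 13.6%) and the GC box (GGGCGG, 35.7%). They were chosen after the sequences had been seen. The window of Cd22 held the early B cell factor letters from base -49 to -40 before the start site, and an E-box. In the window of Cd79a stood an ETS site from -55 to -49 and an E-box. Fcer2a had a TATA box from -33 to -28 in its first window. S1pr2 alone of the 5 genes held the cAMP response element, from -181 to -174, beside an E-box and a GC box just after the start site. Pax5, not printed, held GC boxes only, and the second window of Fcer2a, also not printed, held E-boxes and a GC box. The octamer was in none of the 7 windows. The window of Cd22 lies inside the gene span of GENCODE, whose first start site is farther upstream. That of Cd79a holds the first base of the GENCODE span, 24897381, and its ETS site lies past that base, inside the span. These matches describe letters and show no binding.

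Both signalling chains of the B cell receptor were readily detected. Levels are given as CPM, counts scaled to a library of 1000000 with correction for composition, for mice 4, 5 and 6 in that order and as mean ± SD (n = 3). Cd79a (ENSMUSG00000003379, chromosome 7, 24897381 to 24902197) stood at 102, 68.3 and 115 CPM, a mean of 95.3 ± 24.2. Mouse 5 was the lowest and mouse 6 the highest. Cd79b (ENSMUSG00000040592, chromosome 11, 106311341 to 106314762), the partner chain, stood at 57.6, 50.2 and 71.3 CPM (59.7 ± 10.7). Its order over the mice matched that of Cd79a, with mouse 6 highest. In whole lung, fewer B cells and less RNA per B cell cannot be told apart.

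The surface proteins were detected in every lung. Cd22 (ENSMUSG00000030577, chromosome 7, 30865402 to 30880342) had 94.7, 61.8 and 86.9 CPM (81.1 ± 17.2). Fcer2a (ENSMUSG00000005540, chromosome 8, 3681737 to 3694175) had 40.3, 31.2 and 45.2 CPM (38.9 ± 7.08). Ms4a1 (ENSMUSG00000024673, chromosome 19, 11249675 to 11266241) had 36.7, 28.5 and 31.9 CPM (32.4 ± 4.10). All 3 surface genes were lowest in mouse 5, while Cd22 and Ms4a1 were highest in mouse 4 and Fcer2a in mouse 6.

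The lineage factor and the kinase were also detected in every lung. In mean CPM, Pax5 was close to Ms4a1, and Blk was the lowest of the 8 genes. Pax5 (ENSMUSG00000014030, chromosome 4, 44524757 to 44710487) had 33.1, 25.8 and 36.6 CPM (31.8 ± 5.48). Blk (ENSMUSG00000014453, chromosome 14, 63372836 to 63417037) had 18.0, 15.9 and 24.2 CPM (19.4 ± 4.30). Both had the same order of lungs as Cd79a, with mouse 5 lowest and mouse 6 highest. S1pr2 (ENSMUSG00000043895, chromosome 9, 20962361 to 20976781) had 38.2, 33.9 and 33.4 CPM (35.2 ± 2.64). It had the narrowest range of the 8 genes, highest over lowest lung 1.14, and was the only one lowest in mouse 6 (1 of 8, against 29.9% of the 17636 genes that passed a filter on low counts). Counts behind these values ran from 575 for Blk in mouse 5 to 4414 for Cd79a in mouse 4. Genes that overlap Ms4a1, Pax5 and Cd22, on either strand, had at most 5 counts in any library.

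**Figure D1:**
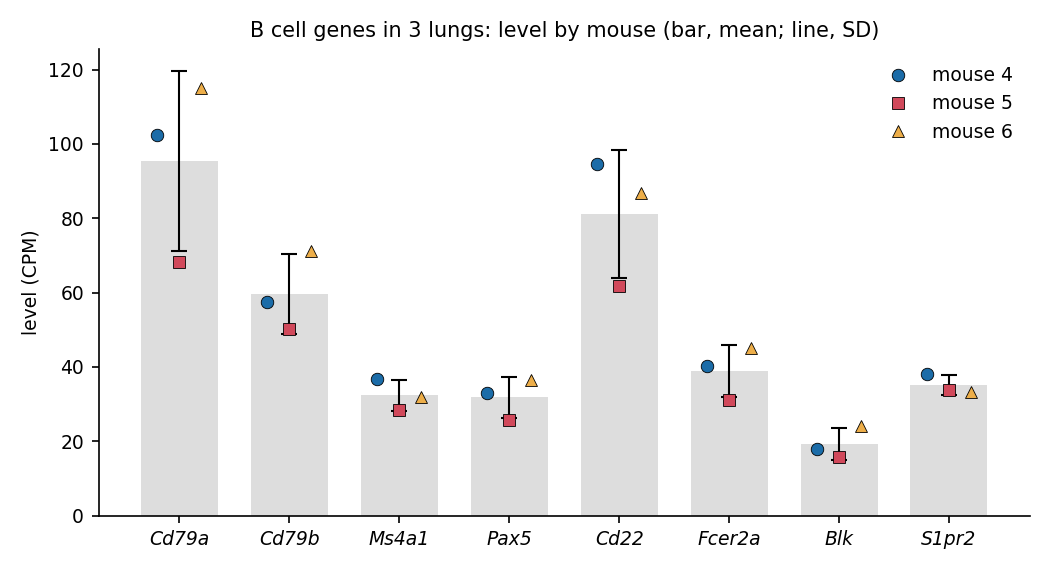
Level in CPM (vertical axis, from 0) of the 8 B cell genes; symbols are mice 4, 5 and 6, bars the mean and lines the SD over the 3 mice. In 7 genes the square of mouse 5 is the lowest symbol. In S1pr2 mouse 6, at 33.4 CPM, lies level with mouse 5, at 33.9, within counting error.

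Levels of different genes were compared per kilobase of exon, since long transcripts give more counts. On this scale Cd79a led at 65.4 ± 16.6 CPM per kilobase (SD, n = 3), followed by Cd79b at 41.7 ± 7.49. Cd79a was above Cd79b in each of the 3 mice, though the ranges of these neighbours overlapped across mice. A wide step separated Cd79b from Cd22, at 16.1 ± 3.41 CPM per kilobase, with no overlap. Fcer2a followed at 12.6 ± 2.29, below Cd22 in each mouse, with overlapping ranges, and Blk at 7.18 ± 1.59, below Fcer2a without overlap. Ms4a1 at 5.23 ± 0.663 lay below Blk in each mouse, with overlapping ranges. S1pr2 at 4.41 ± 0.331 was in turn below Ms4a1 in each mouse, again with overlap. Pax5 came last at 3.60 ± 0.619 CPM per kilobase, with every lung below every lung of S1pr2. With the longest transcript in place of merged exons, Ms4a1 took the fifth place and Blk the sixth, so the order of these 2 genes rests on how length is counted.

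**Figure D2:**
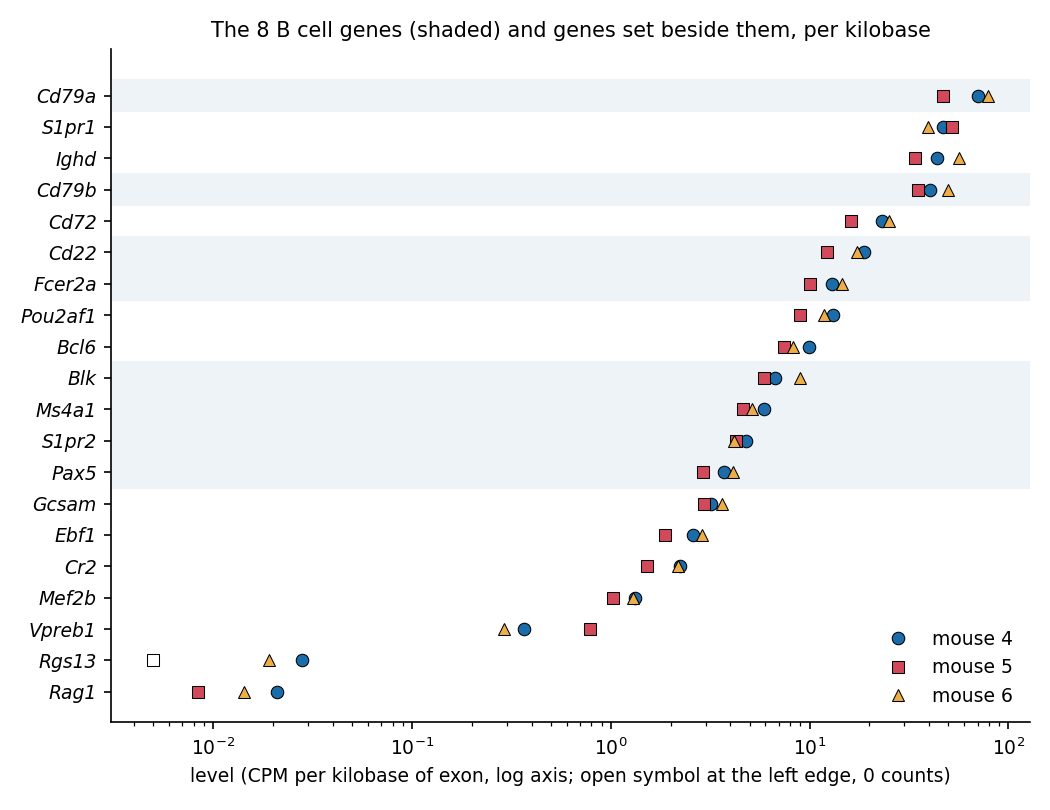
Level in CPM per kilobase of exon (horizontal log axis) of the 8 B cell genes, shaded, and of 12 genes set beside them, for mice 4, 5 and 6 (symbols); the open symbol marks 0 counts. Cd79a stands at the top at 65.4 CPM per kilobase on average, and Rgs13 and Rag1 lie below every shaded gene.

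Most of the genes were lowest in the same lung. Mouse 5 was the lowest for 7 of 8, where 36.8% of the 17636 genes that passed the filter (all 8 did) were lowest in that mouse. Cd79a, Cd79b, Pax5, Fcer2a and Blk ran from lowest in mouse 5 to highest in mouse 6 (5 of 8, all genes 17.1%), and these 5 were the ones highest in mouse 6 (all genes 30.2%). Ms4a1 and Cd22 ran from lowest in mouse 5 to highest in mouse 4 (2 of 8, all genes 19.7%). The median of the 8 genes lay at 39.3, 32.6 and 40.9 CPM in mice 4, 5 and 6. Mouse 5 was below mouse 4 at 8 of 8 genes (all genes 50.5%) and mouse 6 above mouse 5 at 7 of 8 (all genes 49.9%). Between mice 4 and 6 the genes were split, with 5 of 8 higher in mouse 6 (all genes 50.3%). On the log2(CPM + 0.5) scale the median difference was -0.35 for mouse 5 minus mouse 4, 0.15 for mouse 6 minus mouse 4 and 0.50 for mouse 6 minus mouse 5. The same medians over all genes tested were -0.0029, 0.0016 and -0.00069. There is 1 library on each side of such a difference, so none of them has a test.

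Few of these differences were large. Past 1.5-fold on that scale, mouse 5 was lower than mouse 4 at 1 of 8 genes, Cd22 (5.74% of all genes). Cd79a fell just short of it, by a log2 difference of -0.58, and Fcer2a followed at -0.36. Mouse 6 was higher than mouse 5 past 1.5-fold at 2 of 8, Cd79a and Blk (2.99% of all genes), with CPM ratios of 1.69 and 1.52. Mouse 4 and mouse 6 differed by 1.5-fold at none of the 8 genes (2.91% of all genes higher and 3.43% lower in mouse 6).

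**Figure D3:**
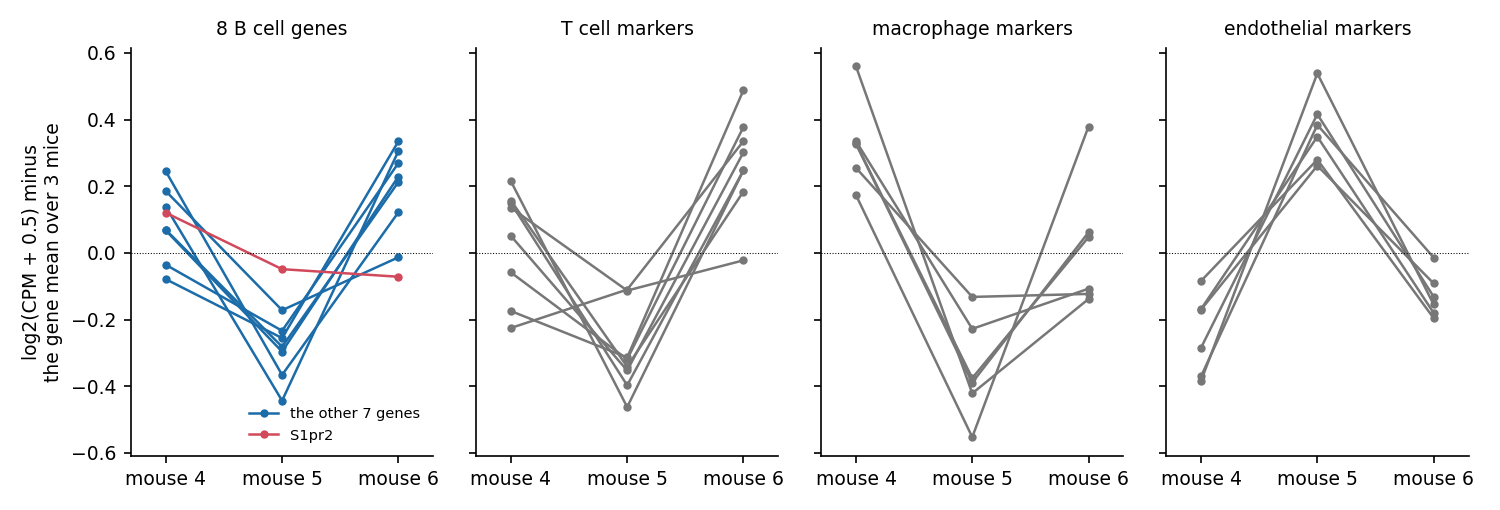
Log2(CPM + 0.5) minus each gene's mean over the 3 mice (vertical axis) in mice 4, 5 and 6 (horizontal axis); each line is 1 gene, in panels for the 8 B cell genes (S1pr2 in red) and the T cell, macrophage and endothelial marker lists. The blue B cell genes and 7 of 8 T cell markers are lowest in mouse 5 (36.8% of all genes), while all 6 endothelial markers are highest there.

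The spread between mice did not pass the test for any of these genes. With edgeR's quasi-likelihood fit, 0 of 8 genes had a dispersion above the trend of genes of like abundance at a Benjamini-Hochberg adjusted p under 0.05, and 0% of the 17636 genes did. The edgeR adjusted p was 0.955 for Cd79a, the gene with the widest spread, and 0.995 for S1pr2. The skeletal muscle marker Acta1, whose highest lung was 3.26-fold above its lowest, was not called either. A test that called no gene does not show that the spread of these 8 was small. At an unadjusted p under 0.05, 1 of 8 genes passed (Cd79a) against 4.92% of all genes (867). Limma called 0 of 8 and 0 genes in all, with 850 at an unadjusted p under 0.05, and DESeq2 marked 0 of 8 among 102 dispersion outliers. Dispersion lay above the trend at 7 of 8 genes, all but S1pr2 (44.1% of all genes). As a log2 ratio of dispersion over trend, the median gene stood at 2.16, from -0.48 for S1pr2 to 3.29 for Cd79a, and -0.29 over all genes. It was 0.68 without mouse 5, 2.65 without mouse 4 and 1.65 without mouse 6.

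Counting error was smaller than the differences between the libraries. A chi-square test of each gene's 3 counts called 8 of 8 genes at an adjusted p under 0.05, where 63.0% of all genes were called, and it compares these libraries only. Without mouse 4 it did not call S1pr2, and without mouse 6 it did not call Blk. The coefficient of variation over the mice was 18.1% for the median of the 8 genes, from 7.51% for S1pr2 to 25.4% for Cd79a. The median over all genes tested was 11.2%.

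For genes made by B cells alone, a ratio within a library does not change with how much B cell RNA the piece of lung held. The count ratio of Pax5 to Cd79a was 0.323, 0.378 and 0.318 in mice 4, 5 and 6, and that of Fcer2a to Cd79a 0.394, 0.457 and 0.393. Both were alike in mice 4 and 6 and higher in mouse 5, where Cd79a itself was low. Over the mean log2 level of the other B cell genes, Cd79a stood at 1.32, 1.06 and 1.41. On that scale Pax5 stood at -0.527, -0.527 and -0.460 and Fcer2a at -0.204, -0.218 and -0.116. Neither was highest in mouse 5 by that measure. The count ratio of Ms4a1 to Cd79a was 0.358, 0.418 and 0.277. Its exact 95% intervals were 0.338 to 0.379, 0.388 to 0.449 and 0.258 to 0.297. These intervals were apart in all 3 lungs, so the mixture of Ms4a1 and Cd79a transcripts differed by more than counting error.

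The other ratios to Cd79a also moved between lungs. Cd22 to Cd79a was 0.924, 0.905 and 0.755, lowest in mouse 6. Cd79b to Cd79a was 0.562, 0.734 and 0.619, so that the chains of 1 receptor complex did not keep 1 ratio of counts, and mouse 5 was highest. Blk to Cd79a was 0.176, 0.233 and 0.210. S1pr2 to Cd79a ranged widest, at 0.373, 0.496 and 0.290. Against the mean log2 level of the other 7 genes, Pax5 varied least over the mice (-0.50 ± 0.039 on the log2 scale, SD, n = 3), then Fcer2a (-0.18 ± 0.055). S1pr2 varied most (-0.33 ± 0.264). Intervals cover counting error within each library only and leave out variation between animals. No molecular identifiers come with these counts, so copied reads cannot be told apart.

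**Figure D4:**
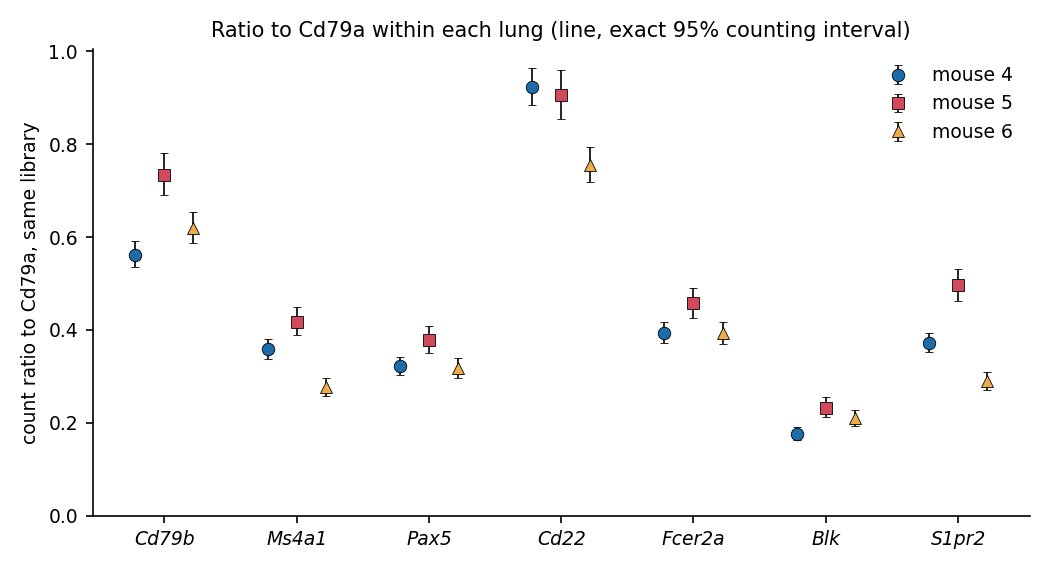
Counts of each gene divided by those of Cd79a in the same library (vertical axis, from 0), for mice 4, 5 and 6; lines are exact 95% counting intervals. Ratios of Pax5 and Fcer2a are close in mice 4 and 6, and that of S1pr2 runs from 0.290 in mouse 6 to 0.496 in mouse 5.

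S1pr2 was set beside its receptor family. S1pr1, the receptor that lets lymphocytes leave tissue and that endothelium makes in quantity, had 143, 159 and 120 CPM. S1pr3 had 51.5, 58.0 and 53.0 CPM, S1pr4 19.1, 22.2 and 23.1, and S1pr5 4.99, 6.44 and 5.71. None of these 4 relatives was lowest in mouse 5 (36.8% of all genes), and 3 were highest there. Counts of S1pr2 were 0.267, 0.214 and 0.278 of those of S1pr1.

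Other germinal centre genes were mixed in level, and Rgs13 and Nuggc were the lowest of the 11 in the list. Rgs13, a regulator of chemokine signals in germinal centre B cells, had 2, 0 and 1 counts, where 3 counts equal 0.0696, 0.0830 and 0.0946 CPM. Nuggc, a nuclear GTPase of germinal centre B cells, had 26, 12 and 14 counts. Summed over the mice Nuggc stood at 0.469 CPM (95% exact Poisson interval 0.350 to 0.615). Gcsam, a germinal centre adaptor, reached 10.9, 10.1 and 12.4 CPM and Mef2b, a factor upstream of Bcl6, 1.86, 1.44 and 1.83.

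Germinal centre genes that other cells share were readily detected. Bcl6, the repressor that sets up the germinal centre and that T cells and macrophages also make, had 66.9, 49.6 and 55.6 CPM. Gna13, the G protein through which S1pr2 signals and which most cells make, had 121, 113 and 105 CPM. Il21r, a cytokine receptor of B and T cells, had 78.2, 47.4 and 74.8 CPM, and the death receptor Fas 41.8, 42.4 and 43.6. Of the 11 genes in the list, 10 passed the filter on low counts, 6 of those 10 were lowest in mouse 5 (36.8% of all genes) and 4 departed from counting noise (63.0% of all genes).

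Most genes of B cell receptor signalling were lowest in mouse 5. In the list, 11 of 13 genes were lowest there (36.8% of all genes). Cr2, the complement receptor that follicular dendritic cells also make, had 18.0, 12.4 and 17.8 CPM. The 4 with the highest mean CPM, Cd81 (314 ± 21.5 CPM), Syk (199 ± 37.5), Lyn (148 ± 11.0) and Vav1 (104 ± 24.3), are also made by macrophages or other lung cells. Cd81 and Lyn were lowest in mouse 6.

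All 7 inhibitors of the receptor were lowest in mouse 5 (36.8% of all genes). Fcgr2b, the inhibitory Fc receptor, had 277, 158 and 190 CPM, and the phosphatase Ptpn6 243, 160 and 207. Inpp5d, a lipid phosphatase, and Dok3, an adaptor, had means of 128 ± 17.9 and 77.1 ± 11.5 CPM. Myeloid cells make these 4 as well. Cd72, a lectin of B cells, had 79.5, 55.2 and 85.9 CPM.

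Of 10 B cell transcription factors, 7 were lowest in mouse 5 and 3 in mouse 4 (36.8% and 33.3% of all genes). Ebf1, the partner of Pax5, had 25.3, 18.3 and 28.3 CPM, and Pou2af1, a coactivator at octamer sites, 33.6, 22.9 and 30.1. The 4 with the highest mean CPM were Irf8 (238 ± 42.6 CPM), Tcf3 (75.9 ± 4.36), Foxo1 (52.2 ± 4.17) and Spib (51.7 ± 11.2). Foxo1, Bach2 and Myb, none of them limited to B cells, were the 3 lowest in mouse 4. The part of other cells in the levels of these 10, those lowest in mouse 5 included, was not tested.

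Mature B cell surface genes were lowest in mouse 5 at 15 of 16 members (all genes 36.8%), with 12 of 16 highest in mouse 6 (all genes 30.2%). Ighm, the heavy chain of IgM, had 777, 419 and 478 CPM, and Ighd, that of IgD on resting B cells, 83.5, 64.8 and 107. Ighd counts per Ighm count were 0.107, 0.154 and 0.224, so this ratio differed between lungs by more than any of the ratios to Cd79a. Plasma cells add to Ighm, and reads may be shared within the antibody gene family. Cd24a, also made by epithelium, had 284, 370 and 353 CPM and was the exception, and Cd37 and Ltb had means of 186 ± 46.3 and 120 ± 30.1 CPM. Those 16 genes had a median difference of -0.37 on the log2(CPM + 0.5) scale for mouse 5 minus mouse 4, against -0.0029 over all genes.

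Genes of early stages of the B lineage were barely detected, and those of the late stage were mixed in order. The 6 precursor genes were at or below 0.940 CPM in every lung, with Vpreb1 at 19, 34 and 11 counts, Dntt at 20, 15 and 21, Rag1 at 6, 2 and 3 and Igll1 at 6, 5 and 1. Vpreb2 had 1 count in each mouse and Rag2 0, 0 and 1. Among plasma cell genes, Jchain, the joining chain of secreted antibody, had 401, 273 and 286 CPM, and its counts were 3.92, 3.996 and 2.49 times those of Cd79a. Sdc1 and Xbp1, both made by lung epithelium too, had 232 ± 18.7 and 210 ± 14.1 CPM, and Mzb1 22.2 ± 5.45. Of 8 plasma cell genes, 5 were lowest in mouse 5 (Jchain, Mzb1, Derl3, Irf4 and Tnfrsf17) and 3 in mouse 6. Over all genes these shares were 36.8% and 29.9%.

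Genes of the follicle and of helper T cells were detected beside the B cell genes. Cxcl13, the chemokine that draws B cells into follicles, had 48.2, 33.6 and 43.9 CPM. Tnfsf13b, the survival factor BAFF, had 57.2, 53.5 and 58.3 CPM, the costimulator Icos 22.6, 16.2 and 22.5, and lymphotoxin Lta 10.2, 5.72 and 10.8. Il21 had 62, 32 and 56 counts. Madcam1, made in follicular stroma, had 36, 18 and 11 counts and Coch, of follicular dendritic cells, 10, 6 and 5. In this list 7 of 8 genes passed the filter, and 6 of the 7 were lowest in mouse 5 (36.8% of all genes).

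Most T cell markers and all 6 macrophage markers were also lowest in mouse 5 (36.8% of all genes), and all 6 vessel markers were highest there. The share of all genes highest in mouse 5 is not given here. T cell markers summed to 331, 246 and 382 CPM in mice 4, 5 and 6, with 7 of 8 (all but Cd8b1) lowest in mouse 5, and were led by Lck, Cd4, Cd3e and Cd3g. Macrophage markers summed to 2160, 1298 and 1676 CPM, with 6 of 6 lowest in mouse 5 (C1qa, C1qb, Cd68 and Csf1r led). Endothelial markers summed to 1211, 1755 and 1277 CPM, with 6 of 6 highest in mouse 5 (Pecam1, Cdh5, Cldn5 and Vwf led). The part of these shares in the lower B cell levels of mouse 5 was not tested.

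Cell types that can share single members were also looked at. Blk and Spib are made by plasmacytoid dendritic cells, whose 7 markers summed to 588, 575 and 661 CPM, mostly from Bst2, Tcf4 and Cox6a2, which many lung cells or muscle make. Their defining marker Siglech had 4.02, 3.35 and 6.84 CPM, and Pacsin1 7.23 ± 2.37. Eosinophil, mast cell and basophil markers summed to 13.0, 10.8 and 9.02 CPM, mostly from Siglecf alone (9.89, 8.82 and 7.54 CPM). Which cells made Siglecf was not tested. The 2 markers of this list that passed the filter, Siglecf and Prg2, were lowest in mouse 6 (29.9% of all genes). Cpa3 and Mcpt8 came next with at most 13 counts in any library, and Epx was at 0 in every library. Thymus and lymph node stroma genes summed to 154, 139 and 160 CPM, from Ccl21a, Cd1d1, Themis and Aire, with Ptcra, a receptor chain of immature thymocytes, at 0 in every library and Foxn1 at 9, 1 and 2 counts.

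Mouse 4 stood apart in other tissue markers. Skeletal muscle markers (Acta1, Ckm, Myh1 and Tnnt3 led) summed to 4739, 1744 and 1494.9 CPM and squamous epithelium markers (Krt13, Krt5, Krt4 and Krt15 led) to 381, 143 and 123. Club cell markers (Scgb1a1, Cyp2f2, Scgb3a2 and Aldh1a7) summed to 8989, 24521 and 21709 CPM. All 6 muscle and all 6 squamous markers were highest in mouse 4 and lowest in mouse 6, and of the B cell genes S1pr2 had that order. All 4 club cell markers were lowest in mouse 4. Of the 8 B cell genes, 0 were lowest in mouse 4 and 3 were highest there (33.3% and 33.4% of all genes). The part of these tissues in the B cell levels was not tested.

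Genes with a pattern like that of the 8 were sought by the distance between centred log2 profiles over the 3 mice. The mean profile was 0.089, -0.26 and 0.17 in mice 4, 5 and 6. Among the 8, Pax5 (0.048) and Fcer2a (0.069) lay nearest to it and S1pr2 farthest (0.326). Nearest of the other genes were Rrad, Gramd1a, Sash3, Fgd2 and Arid5a, with distances from 0.0023 to 0.011. The nearest 5 held 0 of these genes when S1pr2 was left out of the mean profile, and 0 when any 1 mouse was left out. Sash3, a lymphocyte adaptor, had 58.6, 45.5 and 62.3 CPM and Fgd2, found in antigen-presenting cells, 60.2, 47.5 and 64.5. With 3 mice such likeness is common, and 3257 genes (18.5% of 17628) lay as near as Blk, the farthest of the 7 genes besides S1pr2. As near as S1pr2, the farthest of all 8, lay 6754 genes (38.3%). Within the distance of Blk were 7 of 13 genes of receptor signalling, 4 of 7 inhibitors, 6 of 10 transcription factors and 11 of 16 mature surface genes. By the same measure 2 of 10 tested germinal centre genes, 2 of 8 plasma cell genes, 3 of 8 T cell markers, 0 of 6 macrophage markers and 0 of 6 endothelial markers were as near. No relation of function or control follows from this.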

How the data were processed

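The data were 3 lung libraries, each from 1 mouse. Per the labels' protocols, a Direct-zol kit was used for RNA and a Nugen mRNA kit for libraries. For the reads, bcl2fastq 2.17, Trim Galore 0.6.2 and STAR 2.5.2a are named with build mm10 in the submitters' processing notes; how genes were counted, with which annotation and strand setting, is not given in the sources used here. The authors deposited raw counts, whole numbers for each Ensembl gene in 1 column per mouse, with no normalization. Library totals were 43845715, 35674761 and 31579465 for mice 4, 5 and 6, which makes 1 count worth 0.0232, 0.0277 and 0.0315 CPM. GENCODE M21, of the same build, gave symbols, 1-based coordinates and merged exon lengths for 53237 of 53342 identifiers.

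CPM used TMM factors (0.983, 1.014 and 1.004), and logs were log2(CPM + 0.5). Spread between mice was tested over the 17636 genes kept by filterByExpr in edgeR 4.0.16 (R 4.3.3), with an intercept alone, as residual quasi-dispersion over the trend (F test, 3.88 prior degrees of freedom, Benjamini-Hochberg). Departure from counting noise was a chi-square test of each gene's counts. The scripts were tested on simulated data. Limma 3.58.1 and DESeq2 1.42.0 were alternatives, beside other scaling, pseudocounts, filters and lengths and leaving out each mouse. Levels and intervals were computed with scipy 1.17.1 and pandas 2.3.3 in Python 3.11.15.

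The 8 genes and 18 lists (138 genes, all found) were chosen with earlier results of these data known. Named genes are all 8, the 4 most abundant of each list, those with at most 3 counts in each mouse, Bcl6, and the 5 genes of most like pattern; any other was chosen after its values were seen. Some genes the rule covers are not reported here and were left out of the lists. The samples used form 1 labelled group, so no contrast was fitted. The edgeR p-values compare a gene's spread over these 3 mice with the trend of genes of like abundance. The chi-square p-values compare the 3 libraries with counting noise and do not measure spread between animals.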

Additional observations from a re-analysis of the deposited data

How the results depend on the processing

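The finding that 7 of 8 genes were lowest in mouse 5 held with DESeq2 size factors and with library totals alone. Of 208 values under other settings, 192 stayed within the limits set for them and 16 moved. The log2 differences and ratios among them kept their sign, while levels, places and counts have no sign to change. Counts past 1.5-fold sit close to that limit. Mouse 5 was lower than mouse 4 at 0 genes with library totals alone. Mouse 6 was higher than mouse 5 at 1 gene with DESeq2 size factors, with library totals alone and with a pseudocount of 1. With no filter on low counts, edgeR called 1 of the 8 genes (Cd79a, adjusted p = 0.0288) and 632 of 30751 genes for spread. With the filter, DESeq2 marked 102 outliers of 17636 genes. Over the fits that left out 1 mouse, edgeR called from 0 to 13 genes in all and 0 of the 8, and the chi-square test called from 7001 (without mouse 5) to 9071 genes. Genes of like pattern numbered from 5247 to 13970 when 1 mouse was left out (13970 without mouse 5). No paired analysis was possible because there is 1 group. Depth did not limit the 8 genes, which had at least 575 counts in every library, but it limits Rgs13, Nuggc and the precursor genes.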
